A study of Mus musculus with 10 samples.

Results

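Transcripts of 10 structural regulators of microtubules were examined in single *Rreb1*+/+ and *Rreb1*-/- mouse embryos at embryonic day 7.5 (E7.5), to ask whether destabilizers and stabilizers of microtubules moved together or apart when *Rreb1*, which encodes a zinc finger transcription factor, was mutated. The members were chosen by symbol, and all 10 were present among the 20974 genes of the expression table. They comprised 4 stathmins (*Stmn1*, *Stmn2*, *Stmn3* and *Stmn4*) and 6 structural microtubule-associated proteins, or MAPs (*Map1a*, *Map1b*, *Map2*, *Map4*, *Map6* and *Mapt*). The embryos were 5 *Rreb1*+/+ and 5 *Rreb1*-/- embryos of *Rreb1*+/- intercrosses, labelled as the CD1 strain and described in the methods as a mixed background, and each was a separate biological replicate that gave 1 library from the whole embryo after the parietal endoderm had been removed for genotyping. The *Rreb1*-/- allele was a CRISPR deletion within a single coding exon and was present in every cell of the embryo from fertilization. Replicates are numbered 2 to 6 in both genotypes, and no other treatment was applied.

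Microtubules are polymers of alpha- and beta-tubulin that grow and shrink from their ends. Stathmins bind free tubulin dimers and promote shrinkage, and this activity is switched off when kinases phosphorylate them. Structural MAPs bind along the polymer wall and favor its growth and bundling, and they too are released by phosphorylation. *Stmn1* and *Map4* are used by most dividing cells, whereas *Stmn2*, *Stmn3*, *Stmn4*, *Map1a*, *Map1b*, *Map2*, *Map6* and *Mapt* are best known from neurons, which have not yet formed in the embryo at this stage.

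A member's level is given as its normalized count, which is the number of reads assigned to the gene divided by the size factor of the library. Genes with a mean of at least 15 normalized counts in at least 1 genotype were tested (15603 genes), a filter that all 10 members passed. *Stmn4* passed through the *Rreb1*-/- embryos alone, so that it had to differ between genotypes to be tested at all, and its statistics are therefore given from a fit without the filter. Differences are log2 fold changes of *Rreb1*-/- over *Rreb1*+/+ on the scale of log2(normalized count + 1) from limma. A gene was called when its p-value, adjusted over all genes tested, was under 0.05.

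In *Rreb1*-/- embryos 3 of the 10 members were called higher, namely *Stmn4*, *Map6* and *Map2*, against 3.11% of all genes tested. In the fit of all 20974 genes without the filter the same 3 were called, against 2.21% of genes. No member was called lower by limma, against 1.15% of all genes. At an unadjusted p under 0.05, a share not counted over all genes, limma had 1 member lower. It was *Map4*, which DESeq2 called and edgeR did not. The called members were 1 of 4 destabilizers and 2 of 6 stabilizers. The median log2 fold change was 0.09 for the stathmins and 0.00 for the MAPs, beside −0.02 for all genes tested. The study had already named *Map6*, and its source data list *Stmn4*, from these same embryos, so their direction is not independent evidence.

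**Figure D1:**
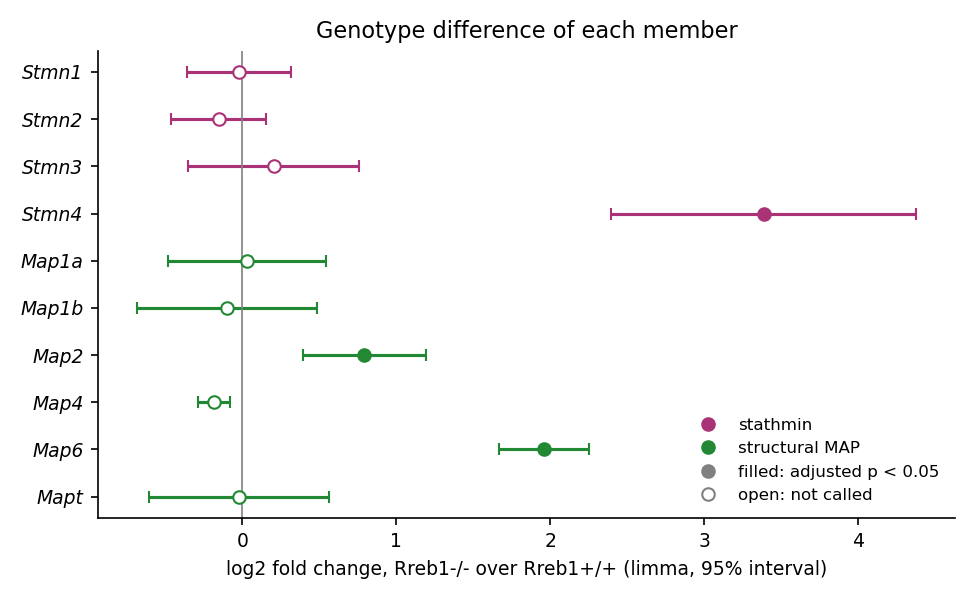
Log2 fold change of each member, *Rreb1*-/- over *Rreb1*+/+, with its 95% interval from limma in the fit with the filter (5 embryos per genotype). Filled points passed an adjusted p of 0.05. *Stmn4* (3.38), *Map6* (1.96) and *Map2* (0.79) lie to the right of 0, the narrow interval of *Map4* lies just to the left of it, and the other 6 intervals span it.

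Some properties of the libraries touch every member. Each library held 31467767 to 35786876 reads counted on genes. Replicates 5 and 6 of either genotype stood apart from replicates 2 to 4 on the leading axis of variation (37.0% of variance), and the labels name no reason for this. Summed Y-linked counts over *Uty*, *Kdm5d*, *Ddx3y* and *Eif2s3y* ranged from 0 to 3.8 in all *Rreb1*+/+ embryos and were 2.1 in mutant replicate 2, but 5849 to 9172 in mutant replicates 3 to 6, so that genotype and sex can be told apart only through mutant replicate 2. *Rreb1* itself rose in the mutants, from 2644 ± 211 to 5010 ± 718 (SD, n = 5), a log2 fold change of 0.91 (adjusted p = 0.000482, limma). Reads were counted over all of its exons and the allele lacks part of 1, so this total does not check the deletion. In whole embryos a change in the number of cells of a type cannot be told apart from a change in RNA per cell.

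Among the stathmins, *Stmn4* was the member with the greatest difference. It encodes a membrane-anchored stathmin of neurons, also called RB3, and lies on chr14:66344296-66361680 (plus strand; GENCODE M21, GRCm38). In *Rreb1*+/+ replicates 2 to 6 its normalized counts were 2.88, 6.02, 8.59, 3.84 and 4.71. In *Rreb1*-/- replicates 2 to 6 they were 31.8, 33.3, 48.8, 117 and 135. The genotypes did not overlap, and mutant replicates 5 and 6 were the highest.

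The mean of *Stmn4* rose from 5.21 ± 2.22 to 73.1 ± 49.0 (SD, n = 5), which is 14.0-fold. In the fit without the filter the log2 fold change was 3.38 (SE 0.44, 95% interval 2.42 to 4.35, adjusted p = 0.00136, limma). The exact two-sided permutation test gave p = 0.00794, the smallest that 5 against 5 embryos allow. Non-overlap with the mutants above was seen for 4.24% of all genes tested. Within replicates 2 to 4 the ratio of means was 6.51, and within replicates 5 and 6 it was 29.4. The difference between these ratios was not tested.

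The wild-type level of *Stmn4* rests on few reads, 3 to 9 per embryo and 27 in all, against 363 in the mutants. The size of the fold therefore depended on the constant added before taking logs, from 2.73 with 5 to 3.50 with 0.5 on the log2 scale, while its direction did not. In the fit with the filter, the call was lost when the summed Y-linked counts were added (2.36, adjusted p = 0.165, limma). Mutant replicate 2, which lacks Y-linked counts, had 31.8 normalized counts, above all 5 *Rreb1*+/+ embryos.

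*Stmn1*, the ubiquitous stathmin also known as oncoprotein 18 (chr4:134468320-134473843, plus strand), was the most abundant member. The *Rreb1*+/+ embryos had 3785, 2585, 3262, 2105 and 3100 normalized counts, and the *Rreb1*-/- embryos 3238, 2899, 3385, 2586 and 2342. The ranges lay almost on top of each other. Its log2 fold change was −0.02 (95% interval −0.36 to 0.32, adjusted p = 0.959, limma), which is 1 of the narrower intervals among the members without a call. Some 18.87% of its 50-base exonic windows also occur in another gene, chiefly the processed copy *Gm11223*, which had 29.3 ± 4.01 and 27.6 ± 3.51 normalized counts in the 2 genotypes.

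*Stmn2* encodes SCG10, a growth cone stathmin (chr3:8509360-8561606, plus strand). Its normalized counts were 525, 686, 662, 561 and 559 in *Rreb1*+/+ embryos and 469, 471, 761, 501 and 522 in *Rreb1*-/- embryos. All mutants but replicate 4 lay below the lowest wild-type embryo, and replicate 4 was the highest of all 10. Between genotypes the log2 fold change was −0.15 (95% interval −0.46 to 0.16, adjusted p = 0.618, limma).

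*Stmn3* encodes SCLIP, a Golgi-associated stathmin of neurons (chr2:181306459-181314500, minus strand). It was low, at 40.3, 34.1, 49.6, 34.6 and 60.3 normalized counts in *Rreb1*+/+ embryos and 31.8, 57.2, 39.3, 63.2 and 64.7 in *Rreb1*-/- embryos. The genotypes overlapped. With a log2 fold change of 0.20 (95% interval −0.35 to 0.76, adjusted p = 0.722, limma), a moderate rise lies within the interval.

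**Figure D2:**
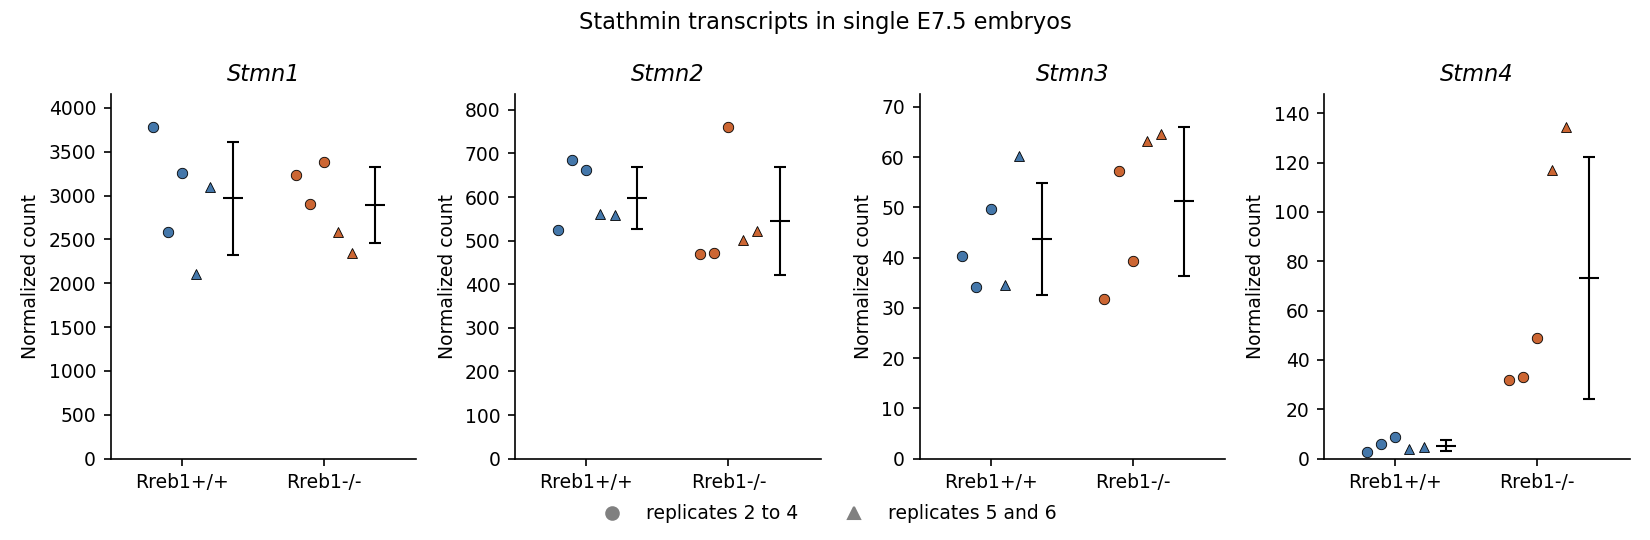
Normalized counts of the 4 stathmins in each embryo, with the mean ± SD beside each genotype (n = 5). Circles are replicates 2 to 4 and triangles replicates 5 and 6. Only in the panel of *Stmn4* are the genotypes separate, with *Rreb1*+/+ embryos at 2.88 to 8.59 and *Rreb1*-/- embryos at 31.8 to 135.

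Among the structural MAPs, *Map6* had the greatest difference and the smallest p-value of the 10 members. It encodes STOP, a protein that protects microtubules from cold and depolymerizing drugs, and lies on chr7:99267447-99337137 (plus strand). The *Rreb1*+/+ embryos had 248, 289, 246, 206 and 210 normalized counts. The *Rreb1*-/- embryos had 848, 800, 841, 1166 and 1041. Every mutant stood far above every wild-type embryo, and again replicates 5 and 6 were the highest mutants.

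The mean of *Map6* rose from 240 ± 33.9 to 939 ± 158 (SD, n = 5), a 3.92-fold difference. The log2 fold change was 1.96 (SE 0.13, 95% interval 1.67 to 2.25, adjusted p = 2.64e-05, limma), and the exact permutation test gave its smallest p of 0.00794. The ratio of means was 3.18 within replicates 2 to 4 and 5.31 within replicates 5 and 6. The rise was called under all 22 alternative settings, among them the fit with summed Y-linked counts (1.83, adjusted p = 0.0113). No exonic window of *Map6* occurs in another annotated gene.

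*Map2*, the classical dendritic MAP that also anchors protein kinase A, lies on chr1:66175273-66442583 (plus strand). Its normalized counts were 531, 395, 427, 279 and 332 in *Rreb1*+/+ embryos and 792, 710, 801, 525 and 551 in *Rreb1*-/- embryos. The mutant exceeded the wild-type embryo of the same number in 5 of 5 cases. No source used here says that same-numbered embryos were littermates or otherwise paired. The genotypes still overlapped by a little, since wild-type replicate 2 was just above mutant replicate 5. Replicates 5 and 6 were the lowest in both genotypes.

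The mean of *Map2* rose from 393 ± 95.8 to 676 ± 131 (SD, n = 5), or 1.72-fold. The log2 fold change was 0.79 (SE 0.18, 95% interval 0.39 to 1.20, adjusted p = 0.0334, limma; exact permutation p = 0.0159). The ratio was 1.70 within replicates 2 to 4 and 1.76 within replicates 5 and 6, so the separate replicate sets gave like values. The call was close to the threshold. It was lost without wild-type replicate 3, 4, 5 or 6 or mutant replicate 2, 3 or 4 (adjusted p = 0.0572 to 0.0852; log2 fold change 0.68 to 0.83), with quantile normalization (0.0532), in replicates 5 and 6 alone (log2 fold change 0.82) and with summed Y-linked counts in the fit (log2 fold change 1.04, adjusted p = 0.163).

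*Map4*, the major MAP of non-neuronal cells, lies on chr9:109931460-110083955 (plus strand) and showed a small difference in the other direction. The *Rreb1*+/+ embryos had 6489, 6441, 6179, 6526 and 6085 normalized counts, and the *Rreb1*-/- embryos 5669, 5427, 5322, 5928 and 5609. The spread within each genotype was narrow and the ranges did not overlap. The means were 6344 ± 198 and 5591 ± 234 (SD, n = 5), a difference of −11.9%. Non-overlap with the mutants below was seen for 2.46% of all genes tested.

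The log2 fold change of *Map4* was −0.18 (SE 0.05, 95% interval −0.29 to −0.08) and was not called by limma (adjusted p = 0.0565), although the exact permutation test reached its smallest p of 0.00794. DESeq2 on the recovered reads called it lower (adjusted p = 0.00254), as it did 2.86% of the genes it tested. With edgeR the adjusted p was 0.0655.

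**Figure D3:**
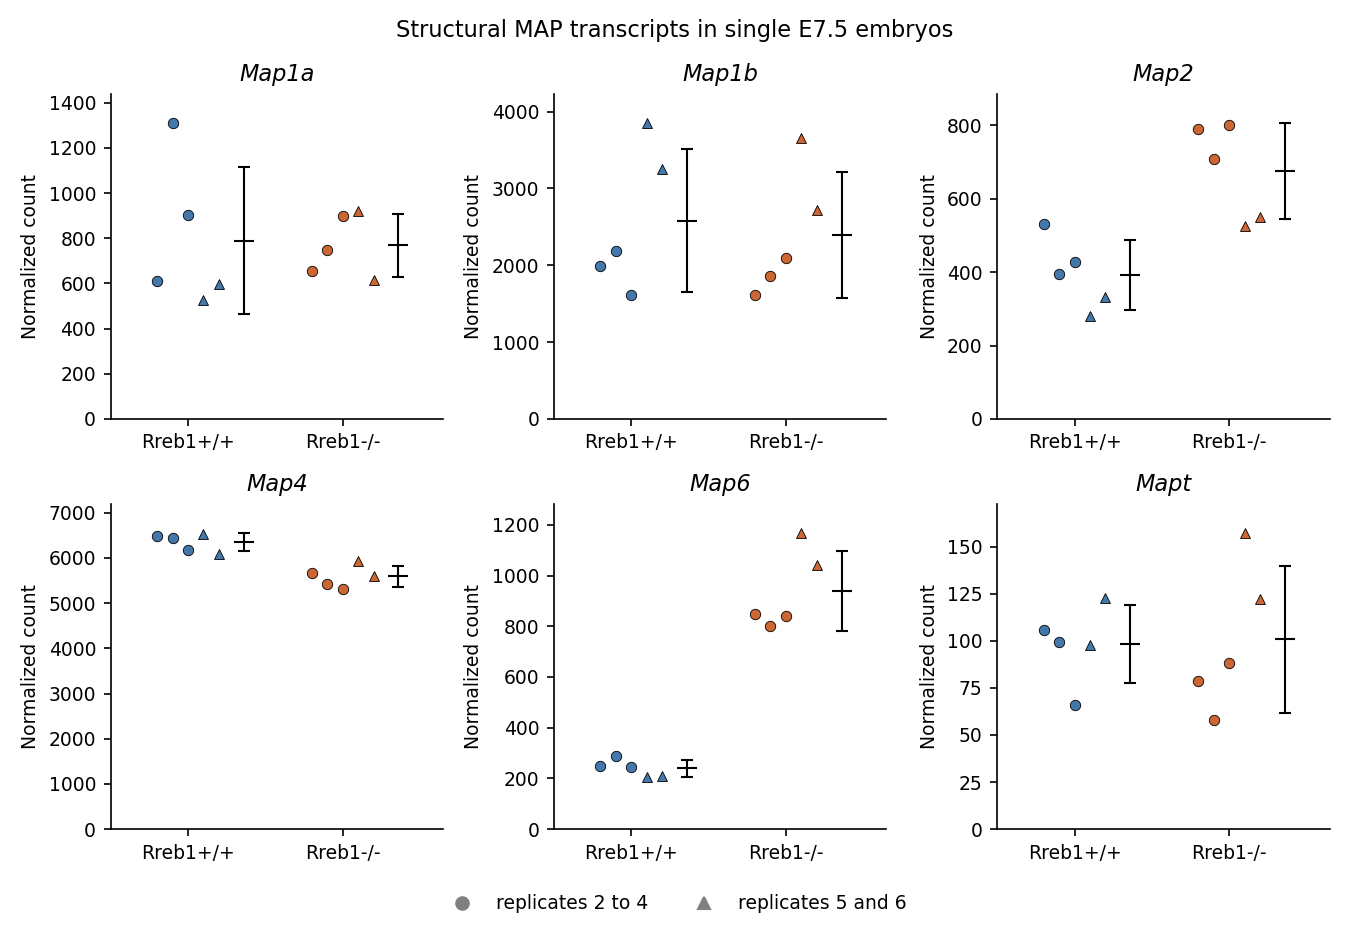
Normalized counts of the 6 structural MAPs in each embryo, with the mean ± SD beside each genotype (n = 5). Circles are replicates 2 to 4 and triangles replicates 5 and 6. *Map6* is separate with the mutants above (800 to 1166 against 206 to 289) and *Map4* with the mutants below (5322 to 5928 against 6085 to 6526), while *Map1b* follows the replicate numbers in both genotypes.

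The other neuronal MAPs did not pass the test. *Map1b*, an early axonal MAP (chr13:99421446-99516540, minus strand), had 1988, 2192, 1617, 3850 and 3248 normalized counts in *Rreb1*+/+ embryos and 1617, 1858, 2097, 3657 and 2716 in *Rreb1*-/- embryos. Replicates 5 and 6 were the highest in both genotypes, 1.84 times the mean of replicates 2 to 4 in the wild type and 1.72 times in the mutants. The log2 fold change between genotypes was −0.10 (95% interval −0.68 to 0.49, adjusted p = 0.887, limma).

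*Map1a*, its relative in mature dendrites (chr2:121289600-121310832, plus strand), had 611, 1310, 901, 527 and 595 normalized counts in *Rreb1*+/+ embryos and 657, 749, 900, 919 and 616 in *Rreb1*-/- embryos. The highest of the 10 values was that of wild-type replicate 3. Its log2 fold change was 0.03 (95% interval −0.48 to 0.54, adjusted p = 0.964, limma). Its exons share 272 bases, 2.24% of their length, with *Ppip5k1* on the opposite strand. The library kit keeps strand, but whether the counting used it is not given in the sources used here.

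*Mapt* encodes tau, the axonal MAP (chr11:104231390-104332090, plus strand). It had 106, 99.4, 65.9, 98.0 and 122 normalized counts in *Rreb1*+/+ embryos and 78.4, 58.2, 88.1, 157 and 122 in *Rreb1*-/- embryos. The genotypes overlapped fully, with a log2 fold change of −0.02 (95% interval −0.60 to 0.56, adjusted p = 0.978, limma). Mutant replicates 5 and 6 were 1.86 times the mean of mutant replicates 2 to 4, against 1.22 times in the wild type.

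Levels of different genes were compared per kilobase of annotated exon. In *Rreb1*+/+ embryos the order of the mean levels was *Stmn1* (1544 per kb), *Map4* (419), *Map1b* (163), *Stmn2* (107), *Map1a* (64.9), *Stmn3* (38.5), *Map6* (26.2), *Map2* (23.9), *Mapt* (13.0) and *Stmn4* (2.72). Neighbors from *Map1b* down to *Map2* overlapped in their ranges over embryos. *Stmn1* and *Map4* at the top and *Mapt* and *Stmn4* at the bottom were each separate from their neighbors. Thus a general stathmin and a general MAP stood at the top, and the neuronal stathmin *Stmn4* at the bottom.

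In *Rreb1*-/- embryos *Stmn1* (1504 per kb), *Map4* (369) and *Map1b* (151) kept the first places. *Map6* came next at 103 per kb, with a range overlapping those of *Map1b* and *Stmn2* (97.2). *Map1a* (63.2) was separate from *Stmn2* above it. *Stmn3* (45.1), *Map2* (41.1), *Stmn4* (38.2) and *Mapt* (13.4) followed, each overlapping the gene before it. *Stmn4*, the last of the 10 in the wild type, overlapped *Map2* in the mutants.

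**Figure D4:**
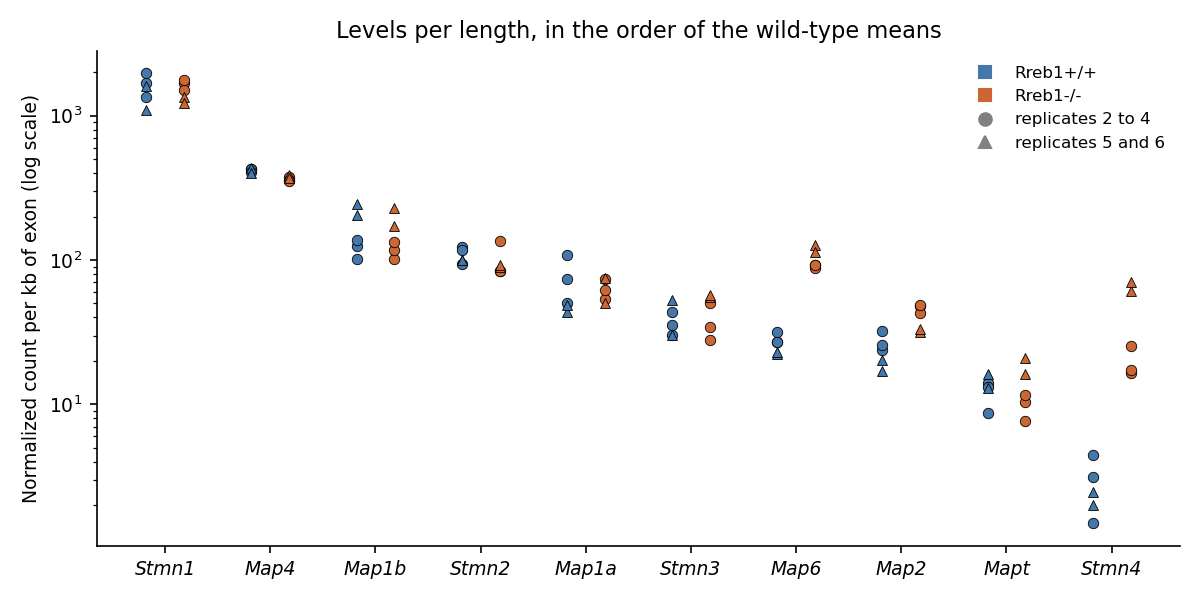
Normalized counts per kilobase of annotated exon for each member and embryo, on a log axis, ordered by the *Rreb1*+/+ mean. *Stmn1* is at the top in both genotypes. *Map6* lies between 22.5 and 31.6 per kb in *Rreb1*+/+ and between 87.4 and 127 in *Rreb1*-/- embryos, and *Stmn4* at no more than 4.48 and at no less than 16.6.

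The balance of destabilizer to stabilizer transcripts was described by summing each class per kilobase. The stathmin sum was 1228 to 2100 per kb in *Rreb1*+/+ and 1439 to 1957 in *Rreb1*-/- embryos, and the MAP sum 646 to 770 and 676 to 878. The ratio of the sums was 2.42 ± 0.615 and 2.31 ± 0.448 (SD, n = 5), with overlapping ranges of 1.60 to 3.10 and 1.77 to 2.76. These sums follow their most abundant members, since *Stmn1* made up 84.7% to 93.8% of the stathmin sum in all 10 embryos.

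Within the MAP sum the composition differed between genotypes. *Map6* made up 2.92% to 4.27% of it in *Rreb1*+/+ embryos and 12.9% to 15.0% in *Rreb1*-/- embryos. The share of *Map4* was 56.0% to 63.2% and 44.6% to 54.9%. Within the stathmin sum the share of *Stmn4* was 0.072% to 0.241% and 0.915% to 4.88%. These shares restate the differences of the single genes and were not tested.

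RefSeq promoter windows (GRCm38.p6, 250 bases before to 50 after a transcript start) were matched for 5 of the 10 members, namely *Map1a*, *Map1b*, *Map2*, *Map4* and *Stmn3*. They are shown for *Map2* (called higher), *Map4* (lower without overlap, not called by limma) and *Stmn3* (no call), which gives 1 window for each kind of outcome. Capitals mark the GC box, GGGCGG on either strand, the binding motif of the Sp family of zinc finger factors. *Map2* is at chr1:66175079-66175378 (plus strand), *Map4* at chr9:109931524-109931823 (plus strand) and *Stmn3* at chr2:181314451-181314750 (minus strand), each written 5′ to 3′ along the gene.
Map2: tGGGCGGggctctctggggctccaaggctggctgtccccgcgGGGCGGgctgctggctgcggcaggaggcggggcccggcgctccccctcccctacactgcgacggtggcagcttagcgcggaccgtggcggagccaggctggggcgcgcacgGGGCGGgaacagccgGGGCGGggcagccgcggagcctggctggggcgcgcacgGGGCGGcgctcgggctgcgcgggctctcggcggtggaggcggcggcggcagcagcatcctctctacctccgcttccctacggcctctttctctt
Map4: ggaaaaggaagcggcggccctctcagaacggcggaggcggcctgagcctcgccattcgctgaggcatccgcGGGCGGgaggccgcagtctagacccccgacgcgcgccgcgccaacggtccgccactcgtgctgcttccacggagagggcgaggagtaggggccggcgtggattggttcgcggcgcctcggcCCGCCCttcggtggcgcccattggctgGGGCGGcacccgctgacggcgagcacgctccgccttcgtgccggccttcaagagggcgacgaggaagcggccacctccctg
Stmn3: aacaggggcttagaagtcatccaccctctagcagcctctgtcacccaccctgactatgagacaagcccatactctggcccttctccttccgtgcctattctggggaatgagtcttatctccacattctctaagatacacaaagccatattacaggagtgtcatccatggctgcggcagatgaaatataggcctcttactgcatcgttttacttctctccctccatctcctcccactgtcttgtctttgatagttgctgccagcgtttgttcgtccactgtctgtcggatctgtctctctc

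The *Map2* window held 5 GC boxes and 37 CpG dinucleotides at 77.7% G+C, the *Map4* window 3 GC boxes and 42 CpG at 73.3%, and the *Stmn3* window 0 GC boxes and 6 CpG at 49.7%. *Map1a* and *Map1b*, which were not called, held 4 and 2 GC boxes. A second start of *Map4*, at chr9:110051771-110052070, had none. GC boxes occur in 35.7% of all 32851 promoter windows, and the median window has 7 CpG and 52.7% G+C. The letters CCACCCC, a short form of the C-rich sequence bound by RREB1, were searched on both strands and were found in 0 of the 6 members' windows and in 15.1% of all windows.

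Other genes of the microtubule system were taken from 5 lists with 115 genes, of which 111 were tested. In *Rreb1*-/- embryos 12 of the 111 were called higher and 0 lower by limma, against 3.11% and 1.15% of all genes. With summed Y-linked counts in the fit 1 of the 111 was called higher and 1 lower, beside 83 and 24 of all genes tested. As for the members, only mutant replicate 2 separates genotype from sex in that fit. At an unadjusted p under 0.05 limma had 20 higher and 5 lower, a share not counted over all genes. With edgeR 13 and 0 were called, beside 506 and 168 of all genes. With DESeq2 15 and 2 were called, beside 785 and 428. The median log2 fold change was −0.01, close to that of all genes tested. All mutants lay above all wild-type embryos for 12 of the 111, against 4.24% of all genes, and 11 of these were among the called. *Jakmip2* and *Fsd1* in these lists had been picked by the study from these embryos.

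Of 29 other stabilizing MAPs, 5 were called higher, against 3.11% of all genes tested. Among these, *Jakmip2* and *Fsd1* had been picked by the study from these same embryos, so the count is not independent of that choice. *Jakmip2*, a Golgi and microtubule-associated coiled-coil protein, rose from 228 ± 51.6 to 744 ± 70.4 normalized counts (SD, n = 5), a log2 fold change of 1.72 (adjusted p = 9.23e-05, limma). *Fsd1*, a protein of centrosomal and midbody microtubules, rose from 272 ± 55.8 to 608 ± 107. *Dpysl3*, a collapsin response mediator that binds tubulin, rose from 653 ± 58.2 to 963 ± 69.1. *Map7d2*, a relative of the kinesin-recruiting MAP7, rose from 173 ± 21.2 to 262 ± 44.3. These 4 did not overlap between genotypes.

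Of 23 genes listed as binders of microtubule ends or relatives of these, 2 were called higher, against 3.11% of all genes tested. *Clip3*, a CLIP-170 relative at the Golgi, rose from 920 ± 133 to 1956 ± 282 normalized counts, a log2 fold change of 1.09 (adjusted p = 0.000491, limma). *Apc2*, a relative of APC in neurons, rose from 59.2 ± 15.7 to 182 ± 83.6 (adjusted p = 0.0292), with mutant replicate 2 at 75.2 inside the wild-type range. None of the 14 severing and depolymerizing enzymes tested, which like stathmins take microtubules apart, was called by limma or edgeR. By limma 3.11% of all genes were called higher and 1.15% lower, so a list of 14 may well hold no call. At an unadjusted p under 0.05, a share not counted over all genes, limma had 1 higher and 1 lower. The latter was *Fign*, which DESeq2 called lower, as it did 2.86% of the genes it tested.

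Of 27 kinases and phosphatases that act on MAPs and stathmins, 4 were called higher, against 3.11% of all genes tested. *Ttbk1*, a kinase of tau, rose from 94.4 ± 47.2 to 318 ± 98.8 normalized counts (log2 fold change 1.84, adjusted p = 0.0111, limma). *Camk4*, a calcium-dependent kinase that phosphorylates stathmin, rose from 60.9 ± 12.5 to 122 ± 18.6. *Ppp2r2b*, a neuronal regulatory subunit of the phosphatase PP2A, rose from 11.3 ± 7.29 to 34.6 ± 7.84. It passed the filter through the mutants alone, and without the filter its adjusted p was 0.0313 (limma). *Mark1*, which phosphorylates MAPs at their microtubule-binding repeats, rose from 459 ± 61.0 to 624 ± 59.7 (adjusted p = 0.0470, limma). Without the filter *Mark1* was not called (adjusted p = 0.0581, limma), and 11 genes of the 5 lists were called higher. Of 18 tubulin-modifying enzymes, 1 was called higher, against the same 3.11% of all genes. It was the carboxypeptidase *Agbl2* (28.9 ± 4.86 to 58.3 ± 8.10, adjusted p = 0.0104, limma).

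**Figure D5:**
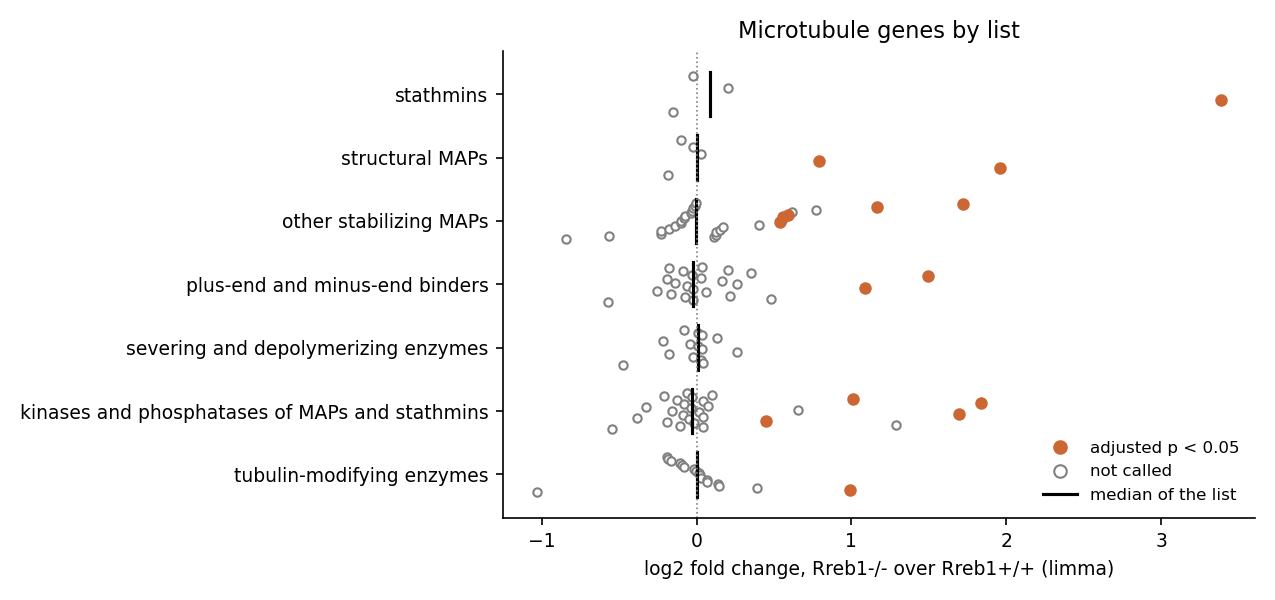
Log2 fold change (*Rreb1*-/- over *Rreb1*+/+) of every tested gene of the member lists and of 5 other microtubule lists. Filled points passed an adjusted p of 0.05 and black bars are list medians. All filled points lie to the right of 0, and the list medians lie between −0.03 and 0.09.

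Because most of the members are best known from neurons, markers of neuronal differentiation were read beside them. Of 24 markers 16 were tested and 2 were called higher, *Tubb3*, the neuronal beta-tubulin (625 ± 127 to 1700 ± 463 normalized counts, log2 fold change 1.42, adjusted p = 0.00166, limma), and *Syt1*, a synaptic vesicle calcium sensor (31.7 ± 8.75 to 76.6 ± 17.2, adjusted p = 0.00917). *Tubb3* was also among the genes the study had picked from these embryos. Over all genes tested 3.11% were called higher. Over the 16 tested markers the median log2 fold change was 0.04, with 9 above 0 and 7 below. The summed level of the list was 3255 to 6162 in *Rreb1*+/+ and 4655 to 8151 in *Rreb1*-/- embryos. *Nefl* and *Nefm* weighed on this sum and varied widely between embryos. *Nefl* had 92.6 to 839 in *Rreb1*+/+ and 111 to 1612 in *Rreb1*-/- embryos, and *Nefm* 80.2 to 1762 and 51.1 to 1418. Their ratios of means were 2.62 and 1.06, and neither was called (adjusted p = 0.601 and 0.998, limma). Values were at hand for 23 of the 24, and *Nhlh1* and *Nhlh2* were among those below the filter. The neurogenic factors *Neurog1*, *Neurog2* and *Neurod1* were near 0 in both genotypes, at 6.77 ± 6.60 and 2.95 ± 3.28, 7.35 ± 3.10 and 7.57 ± 2.22, and 5.15 ± 4.85 and 5.48 ± 3.61. *Elavl3*, an RNA-binding protein of new neurons, had 339 ± 152 and 332 ± 149. *Dcx*, a MAP of migrating neurons from the list of other stabilizing MAPs, had 59.7 ± 26.3 and 70.8 ± 47.5.

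*Rest*, the repressor of neuronal genes outside the nervous system, had means of 4409 ± 180 and 3903 ± 303 in the wild type and the mutants (log2 fold change −0.18, adjusted p = 0.152, limma). None of the 9 genes of the REST complex tested was called by limma, edgeR or DESeq2. At an unadjusted p under 0.05 limma had 1 higher and 2 lower. *Rest* itself was among the lower (unadjusted limma p = 0.0145, exact permutation p = 0.0159). Here and for the neurectoderm list below, the share of all genes at this cutoff was not counted. Of 12 neurectoderm markers tested 1 was called higher, against 3.11% of all genes tested. It was *En1* (29.0 ± 15.4 to 117 ± 26.6, adjusted p = 0.00666, limma). Over the list the median log2 fold change was −0.20, with 8 of 12 below 0, and at an unadjusted p under 0.05 limma had 1 higher and 2 lower. The summed neurectoderm level was 6660 to 8546 in *Rreb1*+/+ and 5535 to 8240 in *Rreb1*-/- embryos.

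Markers of other tissues of the embryo showed which cells the libraries held. *Pou5f1* of the epiblast had 6823 ± 3155 and 7128 ± 3659 normalized counts, *T* of the primitive streak 5400 ± 3408 and 4350 ± 2184, and *Ttr* of the visceral endoderm 14602 ± 1941 and 12694 ± 3828. These means pool replicate sets that differed. Relative to replicates 2 to 4, *Pou5f1* in replicates 5 and 6 was at 0.43 (wild type) and 0.37 (mutants). Likewise *T* was at 0.25 and 0.36, and *Ttr* at 1.09 and 1.59. Of 12 visceral endoderm markers 1 was called, *Afp*, which fell from 12203 ± 1872 to 5248 ± 2285 (log2 fold change −1.32, adjusted p = 0.0157, limma). Over all genes tested 1.15% were called lower. The median log2 fold change was 0.31 for the streak list (9 of 14 above 0), 0.26 for the epiblast list (7 of 9 above 0), −0.53 for the blood list (11 of 13 below 0) and −0.18 for the visceral endoderm list (7 of 12 below 0). The visceral endoderm list summed to 284690 to 321981 in *Rreb1*+/+ and 214274 to 309309 in *Rreb1*-/- embryos. The epiblast, streak, extraembryonic ectoderm, blood and maternal lists had no call by limma or edgeR, and DESeq2 called 1 streak marker in each direction. Before adjustment, at p under 0.05, limma had 1 higher and 2 lower in the streak list and 1 higher in extraembryonic ectoderm. It had 2 lower in blood and 0 in the epiblast and maternal lists. The share of all genes at this cutoff was not counted. The part of tissue composition in the differences of *Stmn4*, *Map6* and *Map2* was not tested.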

How the data were processed

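PolyA RNA of 10 single E7.5 embryos, 5 *Rreb1*+/+ and 5 *Rreb1*-/-, was sequenced from stranded paired-end libraries. The authors mapped reads with STAR, processed the alignments with Picard, counted them per gene with HTSeq and scaled the counts with DESeq, so each deposited value is a signal equal to reads over a size factor. No source used here gives the genome build or gene models. Positions and exon lengths came from GENCODE M21 (GRCm38) through the Ensembl identifiers.

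Genotypes were compared with limma 3.58.1 (variance trend) on log2(value + 1) in R 4.3.3, with Benjamini-Hochberg adjustment over 15603 genes, and single members also by exact permutation (two-sided, 252 arrangements). Reads were recovered as whole multiples of each column's step (100% of values within 0.1 read) for edgeR 4.0.16 and DESeq2 1.42.0, which served as alternatives. The other alternatives were pseudocounts, expression filters, TMM and quantile normalization, the replicate number as a block, Y-linked counts as a covariate, subsets of embryos and stricter thresholds. The procedure was tested on simulated data. Replicate numbers come from the sample titles. Same-numbered embryos deviated together (correlation 0.253 to 0.459, 5 pairs), although just 3 of 10 were most like the embryo of their own number.

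All 10 members are named. From each other list up to 4 called genes of greatest log2 fold change are named, with *Rreb1* and genes overlapping a member. Marker genes without a call, *Fign* and *Rest* were chosen after their values were seen. The members and lists were chosen with earlier results of these data known. Depth was 31467767 to 35786876 counted reads per embryo.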

Additional observations from a re-analysis of the deposited data

Results flagged for a closer look

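*Stmn2* in *Rreb1*-/- embryos had 1 value far from the others. Mutant replicate 4 had 761.4 normalized counts, whereas the other 4 mutants had 469 to 522, and the gap made up 0.821 of the whole range, above the 95% limit of Dixon's test for 5 samples. This was the only such case among 52 groups examined, and chance alone gives about 1 in 20.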

How the results depend on the processing

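*Map6* was called higher under all 22 alternatives run. *Stmn4* was called under 21, the exception being the fit with Y-linked counts, and *Map2* under 12. Apart from the fit without it, these settings kept a filter on the mean, which *Stmn4* passed through the mutants alone. The count of members higher (3) fell to 1 with Y-linked counts, and members lower (0) became 1 (*Map4*) with DESeq2. Genes higher over the whole table (486) became 785 with DESeq2, 83 with Y-linked counts, 85 in replicates 5 and 6 alone, 229 at an adjusted p under 0.01 and 179 with a 2-fold change required. Genes lower (179) became 428, 24, 21, 55 and 63 under the same settings, 356 with the replicate block and 95 to 207 when 1 embryo was left out. The block changed no call of a member. Other microtubule genes higher (12) became 1 with Y-linked counts, 4 in replicates 5 and 6 alone, 5 at an adjusted p under 0.01 and 7 with a 2-fold change. Those lower (0) became 2 with DESeq2, 1 with the replicate block, 1 with Y-linked counts and 0 to 1 when 1 embryo was left out. A stricter threshold can only lower a count, and the cause of the other shifts was not tested.

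Directions turned only for members without a call. With Y-linked counts the log2 fold changes were 0.15 for *Stmn1*, −0.42 for *Stmn3* and −0.15 for *Map1a*. *Map1a* and *Mapt* were −0.035 and 0.041 with edgeR, −0.038 and 0.039 with DESeq2, and −0.038 and 0.037 from the ratio of genotype means, an alternative added after seeing the data. *Map1a* was −0.23 in replicates 2 to 4 alone, and *Mapt* 0.34 in replicates 5 and 6 alone. Leaving out 1 embryo gave −0.14 to 0.072 for *Stmn1*, −0.094 to 0.23 for *Map1a*, −0.27 to 0.064 for *Map1b* and −0.20 to 0.15 for *Mapt*. The median of the stathmins was −0.11 with Y-linked counts, and that of the MAPs 0.38 in replicates 5 and 6 alone. Depth limits *Stmn4* most, with 27 wild-type reads in all.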
